A study of Homo sapiens with 10 samples.

Results

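The insulator line InsE was compared with the other insulator lines, InsF, InsG and InsH, in GIST-T1 cells. GIST-T1 is an established human cell line from a metastasis of a gastrointestinal stromal tumour (GIST), a sarcoma of the gut wall that is usually driven by the receptor KIT. The comparison used 8 of the 10 RNA-sequencing libraries of the study: 2 of InsE, against 2 each of InsF, InsG and InsH. Libraries were chosen by the genotype in their labels, and each gene's level in InsE was set against the mean of the 3 other lines. The remaining 2 libraries, from the wild-type GIST-T1 control, had no part in the test and are given only as levels. All 4 insulator lines derive from GIST-T1, which has intact succinate dehydrogenase, and carry a disrupted CTCF insulator. No drug or ligand is listed for any group, and all cells grew in the same serum-containing medium. The labels name the lines by letter only. Which bases were changed in each line is not stated in them, nor whether a line is a single clone, nor whether its libraries came from separate cultures. InsE is a single line, so the effect of its edit and other properties of that line cannot be told apart. The p-values measure the spread between libraries, which may be technical.

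CTCF is a DNA-binding protein that, with the ring complex cohesin, anchors chromosome loops. An insulator is a CTCF-bound boundary that keeps the enhancers on its one side from acting on genes on the other. At the long arm of chromosome 11, such boundaries lie between ANO1, which is highly active in GIST, and the fibroblast growth factor genes FGF3, FGF4 and FGF19. Fibroblast growth factors are secreted ligands of receptor tyrosine kinases. These receptors signal through the kinase ERK, which switches on early transcription factors such as EGR1 and feedback inhibitors such as the Sprouty proteins and the phosphatase DUSP6.

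InsE stood further from InsF, InsG and InsH than these stood from each other. Levels are in CPM, read counts scaled to a common library total after normalisation between libraries, and differences are given on the log2 scale, InsE minus the mean of the other 3 lines, with their standard error (SE). With edgeR's quasi-likelihood test, the replicate number as a block and Benjamini-Hochberg adjustment over 15173 genes, 7695 genes (50.7%) had an adjusted p under 0.05. Of these, 3842 were higher in InsE (25.3%) and 3853 lower (25.4%). The counts of every gene list below are to be read beside these shares. Called or not, 5224 genes (34.4%) had no overlap between the InsE libraries and those of InsF, InsG and InsH. Statements below that InsE lay above or below all others are to be read beside that share. A difference of at least 2-fold was found for 740 genes (4.88%), 283 higher (1.87%) and 457 lower (3.01%). The median difference over all genes tested was 0.01. Without the block, 3033 genes passed (20%), 1387 higher (9.14%) and 1646 lower (10.8%), of which 549 differed at least 2-fold. At least 2-fold differences numbered 375 (112 higher, 263 lower) with a filter at a mean of 1 CPM and 231 (74 higher, 157 lower) with limma on log2(TPM + 1). The balance of directions moved when unit, scaling and test were changed together: 49.9% of the called genes were higher in InsE with edgeR on counts, but 26.1% with limma on log2(TPM + 1) and 25% on log2(TPM + 0.1). TPM values are transcript shares that sum to the same total in every library.

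Single pairs of lines gave the same picture. InsE differed from InsF in 6912 genes (45.6%), from InsG in 7104 (46.8%) and from InsH in 6210 (40.9%). InsF differed from InsG in 4389 genes (28.9%), InsF from InsH in 680 (4.48%) and InsG from InsH in 2449 (16.1%). The contrast was sharper for large differences. At least 2-fold differences numbered 768 between InsE and InsF (5.06%), 668 between InsE and InsG (4.4%) and 660 between InsE and InsH (4.35%). They numbered 72 between InsF and InsG (0.475%), 27 between InsF and InsH (0.178%) and 43 between InsG and InsH (0.283%). Without the block, 2181, 1961 and 1687 genes were called in the InsE pairs, and 8, 7 and 0 in the others. Called in the same direction against each of the 3 lines were 2029 genes higher and 2344 lower in InsE, of which 129 and 293 differed at least 2-fold from every line. A further 139 genes were called in opposite directions against different lines.

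**Figure D1:**
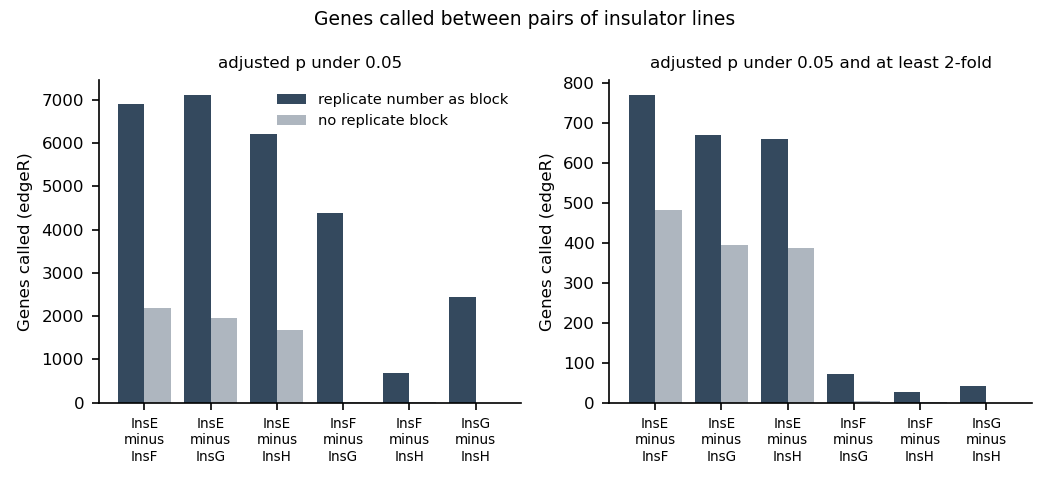
Genes called by edgeR for each pair of insulator lines, with the replicate number as a block (dark bars) and without it (light bars). The left panel counts genes with an adjusted p under 0.05 and the right panel those that also differ at least 2-fold. With the block, the 3 pairs with InsE reach 660 to 768 genes on the right, against 27 to 72 for the pairs without it.

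The replicate number was a strong axis of its own. Over the 500 most variable genes, the first principal component (38.9% of the variance) separated replicate 1 from replicate 2 in every line. The second (28.6%) separated InsE, at -23.35 and -31.12, from the other lines, at 2.92 to 16.17. The 4 libraries of replicate 1 held 22.9 to 42.5 M (mega) counts and those of replicate 2 held 9.4 to 14.8 M, so replicate and depth cannot be told apart. Within replicate 1, the root mean square difference of InsE from another line was 0.491 to 0.533 log2 units, against 0.289 to 0.312 among InsF, InsG and InsH. Within replicate 2 it was 0.651 to 0.666 against 0.454 to 0.466. Of the 7695 called genes, 7598 had the same sign within both replicates, as had 729 of the 740 that differed at least 2-fold. The genes were called from these same libraries, so this agreement was largely built into their selection. It is no separate support.

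**Figure D2:**
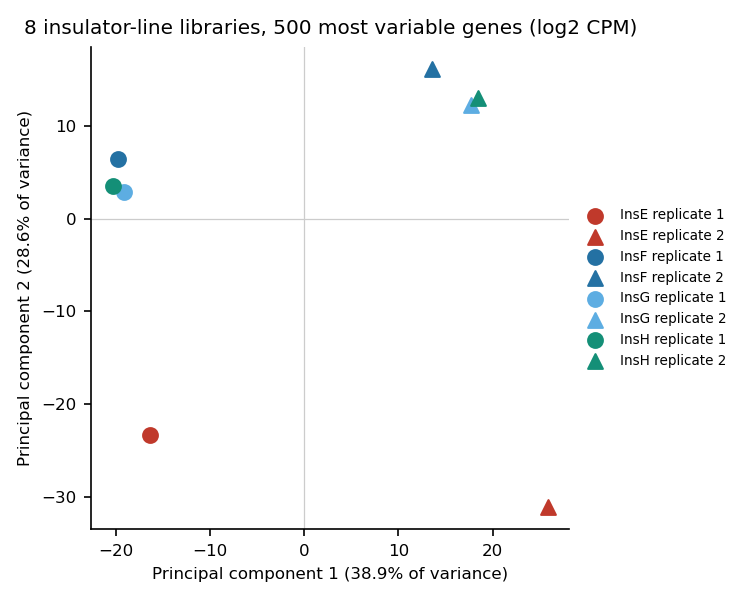
Principal components of the 8 insulator-line libraries from the 500 most variable genes (log2 CPM), with the share of variance on each axis. Circles are replicate 1 and triangles replicate 2. InsE lies at -23.35 and -31.12 on the second component, below the 6 other libraries, and the first component separates the replicates.

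Among the ligands, FGF3 had the largest rise of the genes that the naming rule gave. Its level was 36.8 and 36.4 CPM in InsE, against 12.6 and 14.4 in InsF, 5.25 and 5.5 in InsG, 7.35 and 10.5 in InsH, and 0 in both control libraries. Both InsE libraries lay above all others, and InsF above InsG and InsH. The difference from the mean of the 3 lines was 2.13 ± 0.07 (edgeR adjusted p = 2.47e-23). By line it was 1.48 against InsF, 2.78 against InsG and 2.12 against InsH. FGF3 lies on chromosome 11 from 69809969 to 69819024, on the minus strand (hg38, GENCODE release 29).

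The neighbouring FGF19 was also higher in InsE, from few reads. It had 33 and 8 counts in InsE, against 11 and 7 in InsF, 10 and 4 in InsG, 11 and 2 in InsH, and 3 and 1 in the control. Its difference was 1.52 ± 0.39 (edgeR adjusted p = 0.00133), and the call was lost without InsE replicate 1 (adjusted p = 0.221). FGF4 was too low to test, with 1 count over both InsE libraries, against 2, 12 and 3 in InsF, InsG and InsH and 0 in the control. MYEOV, between CCND1 and the centromere, had 0.387 and 0.426 CPM in InsE, against 0.334 to 0.812 in the other lines (difference -0.45 ± 0.44, adjusted p = 0.414).

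CCND1, the gene of the cell cycle regulator cyclin D1, lies 169 kb below FGF3 and was higher in InsE. It stood at 387 and 378 CPM in InsE, against 205 and 205 in InsF, 232 and 239 in InsG, 226 and 228 in InsH, and 279 and 271 in the control. The InsE libraries exceeded all others, the control lay between, and the difference was 0.8 ± 0.02 (edgeR adjusted p = 8.79e-32). CCND1 overlaps ORAOV1, and with strand not given their shared reads cannot be told apart. Its paralogue CCND2 on chromosome 12 was higher as well, at 460 and 479 CPM in InsE against 316 to 355 in the other lines (0.48 ± 0.01, adjusted p = 1.96e-27).

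On the other side of the insulator region, ANO1 differed by little between the lines. Its level was 688 and 744 CPM in InsE, against 703 and 768 in InsF, 751 and 810 in InsG, 766 and 818 in InsH, and 1280 and 1290 in the control. The groups overlapped, and the difference of -0.1 ± 0.01 was called with the block (edgeR adjusted p = 5.63e-14) but not without it (0.262). Of the 27 tested protein-coding genes within 2 Mb of FGF3, 12 were higher and 4 lower in InsE. Beside these counts stand the shares over all genes, 25.3% higher and 25.4% lower. Whether the counts near FGF3 depart from those shares was not tested. Among the higher genes, ORAOV1 (0.18), CTTN (0.09), PPFIA1 (0.08) and NADSYN1 (0.21) lost their calls without the block. FGF3, FGF19, CCND1, IGHMBP2 and DHCR7 kept theirs without the block. IGHMBP2 (0.36) lost its call with limma on log2(TPM + 1) (adjusted p = 0.686) and on log2(TPM + 0.1) (0.685). Its difference ran from 0.08 to 0.4 over the settings. FGF19 lost its call with DESeq2 (adjusted p = 0.0537), and PPFIA1 changed sign with limma on both TPM scales. The settings for the other higher genes are not reported here. The largest differences after FGF3, FGF19 and CCND1 were those of DHCR7 (0.73 ± 0.02), which makes cholesterol, and CPT1A (-0.53 ± 0.03), which imports fatty acids into mitochondria. They lie 1618 kb above and 1055 kb below FGF3.

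**Figure D3:**
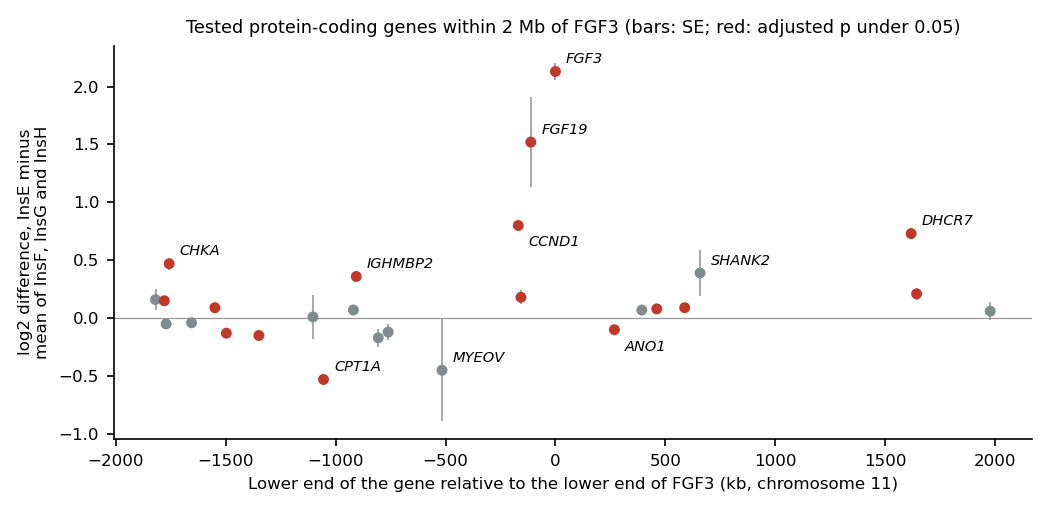
Difference of InsE from the mean of InsF, InsG and InsH (log2, bars SE) for the 27 tested protein-coding genes within 2 Mb of FGF3, by position relative to FGF3. Red points were called. FGF3, FGF19 and CCND1 stand at 2.13, 1.52 and 0.8, and ANO1 at -0.1.

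Genes that answer to ERK signalling did not all move one way. DUSP6, which dephosphorylates ERK, stood at 187 and 186 CPM in InsE, against 68.4 and 63.2 in InsF, 68.7 and 72.1 in InsG, 69.4 and 66.6 in InsH, and 157 and 160 in the control. SPRY4, a Sprouty inhibitor, stood at 553 and 612 CPM in InsE, against 256 to 292 in the other lines and 497 and 490 in the control. For both genes InsE lay near the control, at 1.45 ± 0.02 and 1.08 ± 0.01 above the other lines (edgeR adjusted p = 2.79e-33 and 1.05e-39). SPRY2 differed by 1.03 ± 0.01, at 417 and 390 CPM in InsE, against 189 to 205 in the other lines and 205 and 198 in the control, so here the control lay with the other lines. The feedback list as a whole did not lean to a side. Of its 20 tested genes, 6 were higher and 7 lower, with a median of -0.03, and without the block 5 and 2. SPSB1, an adaptor of ubiquitin ligases, was lower at 1.23 and 1.81 CPM in InsE, against 2.52 to 3.34 in the other lines (-1.02 ± 0.22, adjusted p = 0.00021), and its call was lost without InsE replicate 1 (0.227).

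Immediate early genes, which respond to signals without new protein synthesis, were led by EGR1. Its level was 42.1 and 50.4 CPM in InsE, against 12.5 and 14.3 in InsF, 12 and 14.5 in InsG, 12.6 and 16 in InsH, and 31.5 and 30.9 in the control (1.77 ± 0.05, edgeR adjusted p = 2.33e-26). The InsE libraries stood above the control and the control above the 6 others. IER2 and the mRNA-decay factor ZFP36 differed by 1.21 ± 0.04 and 1.04 ± 0.18. Among the 21 tested genes of the list, 8 were higher and 3 lower, against 4 and 3 without the block. The median was 0.09, and it turned to -0.02 with limma on log2(TPM + 1). EGR3, a relative of EGR1 on which the reads were few, was lower, with 22 and 5 counts in InsE (-1.03 ± 0.33, adjusted p = 0.0092). Its call was lost without InsE replicate 1 (0.146).

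The promoter of EGR1 is shown because it holds the CArG box, the site that serum response factor binds at early genes and at smooth muscle genes alike. ACTG2, the smooth muscle gamma-actin gene described below, carries the same motif and went the other way. Both windows are the 250 bases before the annotated start in RefSeq (GRCh38.p14), 5′ to 3′ on the gene's strand, with the CArG boxes in capitals. They lie at chr5:138465229-138465478 (plus strand) and chr2:73892758-73893007 (plus strand).
EGR1: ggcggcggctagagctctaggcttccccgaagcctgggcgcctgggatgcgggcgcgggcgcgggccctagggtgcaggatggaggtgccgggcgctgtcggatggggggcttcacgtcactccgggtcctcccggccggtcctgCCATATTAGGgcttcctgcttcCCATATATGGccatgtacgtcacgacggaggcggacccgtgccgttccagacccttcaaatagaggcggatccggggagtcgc
ACTG2: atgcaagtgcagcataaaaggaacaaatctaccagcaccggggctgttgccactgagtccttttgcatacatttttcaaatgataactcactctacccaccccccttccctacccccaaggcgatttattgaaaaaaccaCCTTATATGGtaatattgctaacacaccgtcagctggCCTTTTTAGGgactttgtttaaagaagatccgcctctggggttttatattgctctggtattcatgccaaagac
The motif was searched on both strands in every such window, overlapping copies were merged, and overlap with other motifs was not searched. It occurred in 394 of 27305 genes with a window (1.44%), in 2 of the 16 tested early genes with a window and in 5 of the 13 tested contractile genes. Among contractile genes it lay in 2 of the 8 lower in InsE and 1 of the 2 higher. Among early genes it lay in 2 of the 7 higher and 0 of the 1 lower. A match describes the letters and not a bound site.

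Receptors for these ligands differed by at most 0.62 log2 units in either direction. Of the 14 tested FGF receptor and co-receptor genes, 3 were higher and 7 lower in InsE (median -0.19), and 2 and 6 without the block. GPC3 and GPC4, heparan sulphate proteoglycans of the cell surface, moved in opposite directions. GPC3 stood at 231 and 222 CPM in InsE, against 160 to 173 in the other lines (0.45 ± 0.02), and GPC4 at 253 and 247, against 313 to 340 (-0.4 ± 0.02). FGFR4 was higher from a low level, at 3.45 and 3.94 CPM in InsE against 2 to 2.71 in the other lines (0.62 ± 0.18, edgeR adjusted p = 0.00398). Its call was lost without InsE replicate 1 (0.0686) and with DESeq2 (0.0644).

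Other receptor tyrosine kinases were mostly lower. Among 25 tested, 19 were lower and 4 higher (median -0.42), and 16 and 2 without the block. FLT1, a receptor of vascular endothelial growth factor, stood at 5.45 and 7.68 CPM in InsE, against 37.9 and 36.6 in InsF, 15.2 and 13.6 in InsG, 20.8 and 17 in InsH, and 7.1 and 6.32 in the control (-1.89 ± 0.1, edgeR adjusted p = 3.86e-14). The 3 other lines also differed among themselves, with InsF highest (adjusted p among them = 3.31e-12). The ephrin receptor gene EPHB1 differed by -1.61 ± 0.16 and the collagen receptor gene DDR1 by -1.04 ± 0.13. The DDR1 call was lost with limma on log2(TPM + 1) (adjusted p = 0.119, difference -0.45) and on log2(TPM + 0.1) (0.116). EPHA7 went up from few reads, with 46 and 13 counts in InsE (1.61 ± 0.33, adjusted p = 7.69e-05), and its call was lost without InsE replicate 1 (0.0596).

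GFRA1, the receptor that binds glial cell line-derived neurotrophic factor (GDNF), was near its control level in InsE. It stood at 1.13 and 0.426 CPM in InsE, against 12.9 and 13.8 in InsF, 12 and 12.4 in InsG, 11.7 and 11.3 in InsH, and 0.507 and 0.311 in the control. The edgeR test among InsF, InsG and InsH gave an adjusted p of 0.316. InsE lay below all libraries of these lines (-3.66 ± 0.16, edgeR adjusted p = 1.19e-20), as the naming rule required of the largest falls. The ligand gene GDNF was higher, at 50.8 and 52.9 CPM in InsE against 34.9 to 38.4 in the other lines (0.49 ± 0.04), a call lost with limma on log2(TPM + 1) (adjusted p = 0.0762). GFRA1 needs the partner receptor RET, which had 2.29 and 2.67 CPM in InsE against 2.87 to 4.88 (-0.46 ± 0.18, edgeR adjusted p = 0.0304). The RET call was lost under 12 of the 20 alternative settings. Among these were edgeR without the block (adjusted p = 0.158), DESeq2 (0.187) and limma on log2(TPM + 1) (0.319).

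**Figure D4:**
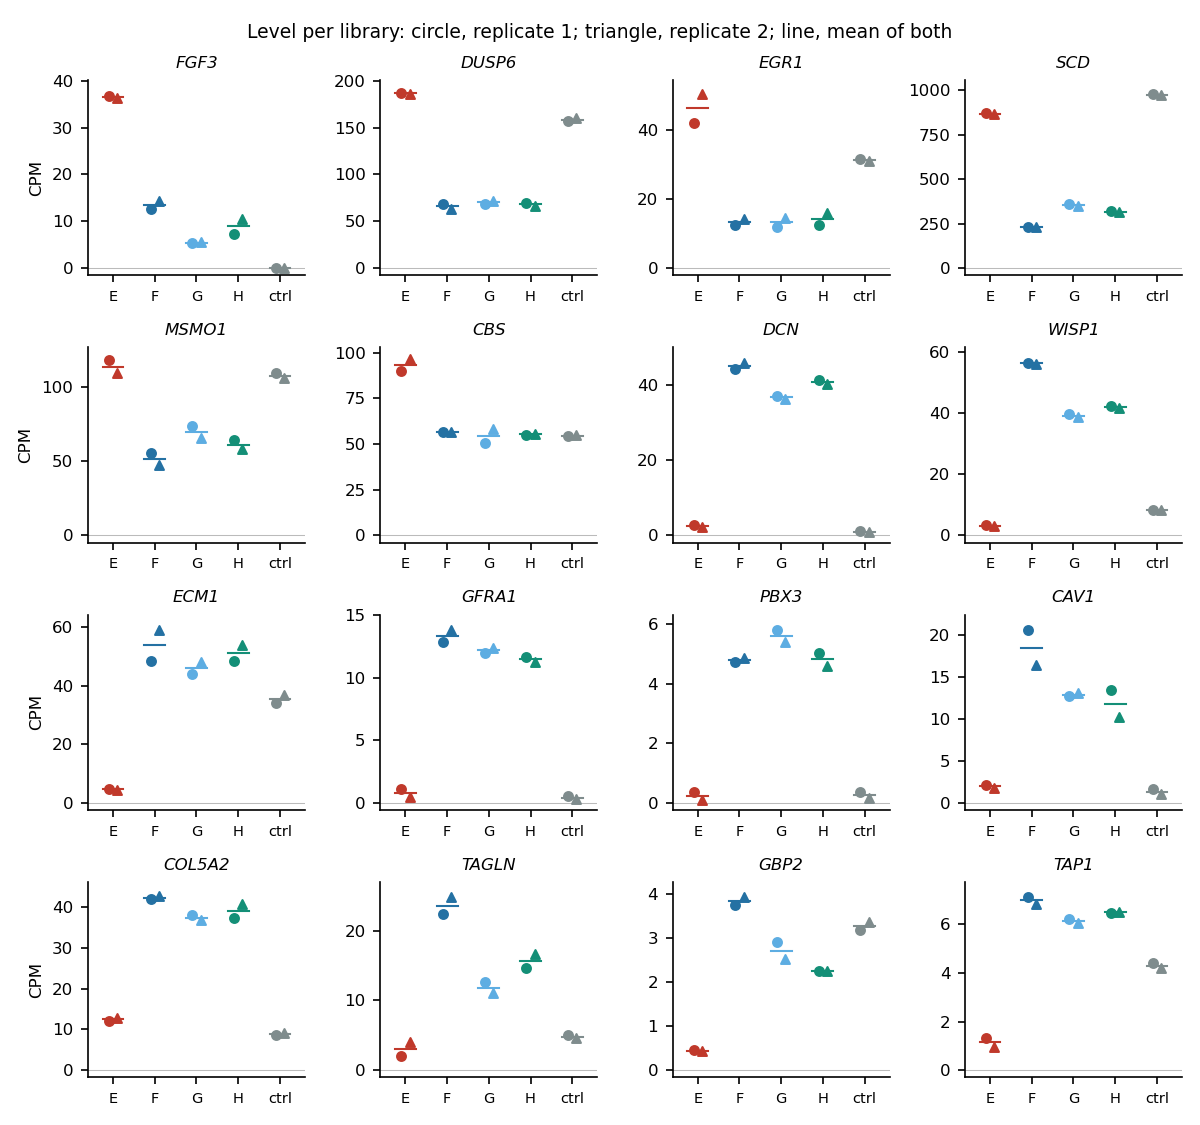
Level in CPM of 16 genes in every library, with circles for replicate 1, triangles for replicate 2 and a line at the mean of both. From left to right each panel holds InsE, InsF, InsG, InsH and the control. FGF3 stands at 36.8 and 36.4 in InsE and at 0 in the control, whereas DCN, GFRA1, PBX3, CAV1 and COL5A2 are low in InsE and in the control alike and high in InsF, InsG and InsH.

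Genes of cholesterol synthesis and uptake were higher in InsE as a group. Of 25 tested, 21 were higher and none lower, with a median of 0.48. Without the block 19 were higher and none lower, and 18 stayed higher under each of the alternative settings tried. Cells make cholesterol from acetyl-CoA by a chain of enzymes whose genes the factor SREBF2 switches on when sterols run short. HMGCS1, an early enzyme of the chain, stood at 265 and 244 CPM in InsE, against 145 and 128 in InsF, 177 and 159 in InsG, 159 and 147 in InsH, and 207 and 208 in the control. MSMO1, which removes methyl groups from sterols, stood at 118 and 109 CPM in InsE, against 55.6 and 47.1 in InsF, 73.6 and 65.6 in InsG, 64.4 and 57.8 in InsH, and 109 and 106 in the control. For both genes InsE was highest and InsF lowest of the 4 lines, at differences of 0.74 ± 0.02 and 0.9 ± 0.03 (edgeR adjusted p = 5.37e-28 and 2.14e-25).

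INSIG1, which holds back the sterol sensor, differed by 0.83 ± 0.02, and HSD17B7, an enzyme of the chain, by 1.06 ± 0.07. For 14 of the 21 higher genes the control lay nearer to InsE than to the mean of the other lines on the log2 scale. Over all genes called higher this held for 1728 of 3842.

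The promoter windows of HMGCS1 and MSMO1 are printed because sterol genes pair their SREBF sites with CCAAT boxes, the site of the factor NF-Y. Capitals mark CCAAT on either strand (read as ATTGG on the other strand). The windows lie at chr5:43313413-43313662 (minus strand, the first of 2 windows of HMGCS1) and chr4:165327419-165327668 (plus strand).
HMGCS1: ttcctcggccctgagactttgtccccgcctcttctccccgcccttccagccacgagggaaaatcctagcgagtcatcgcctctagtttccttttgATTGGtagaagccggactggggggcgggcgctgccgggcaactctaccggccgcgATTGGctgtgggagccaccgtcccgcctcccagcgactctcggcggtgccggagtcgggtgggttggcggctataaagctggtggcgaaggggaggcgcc
MSMO1: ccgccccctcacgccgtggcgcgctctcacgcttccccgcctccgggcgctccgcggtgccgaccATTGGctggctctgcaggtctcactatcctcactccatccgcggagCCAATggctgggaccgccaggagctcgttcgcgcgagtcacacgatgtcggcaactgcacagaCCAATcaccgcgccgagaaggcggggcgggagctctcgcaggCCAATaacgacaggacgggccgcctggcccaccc
CCAAT was found in 17 of the 19 tested cholesterol genes with a window, among them 16 of the 17 that were higher in InsE. It was found in 10102 of all 27305 genes (37%).

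Fatty acid synthesis was led by SCD, the desaturase that makes oleic acid. SCD stood at 872 and 865 CPM in InsE, against 232 and 230 in InsF, 361 and 352 in InsG, 322 and 313 in InsH, and 980 and 972 in the control. InsE was near the control, the 3 other lines lay below both, and the difference was 1.55 ± 0.01 (edgeR adjusted p = 2.24e-49). FASN, the fatty acid synthase gene, stood at 847 and 930 CPM in InsE, against 504 to 576 in the other lines and 1070 and 1080 in the control (0.73 ± 0.01, adjusted p = 1.57e-40). Over 20 tested genes, 12 were higher and 4 lower (median 0.18), and 7 and 2 without the block. With limma 3 were higher and 3 lower on both TPM scales (medians 0.07 on log2(TPM + 1) and 0.08 on log2(TPM + 0.1)), so the lean to higher levels was not seen there. For 11 of the 12 higher genes the control lay nearer to InsE. ELOVL2, which lengthens polyunsaturated fatty acids, was lower, with 11 and 5 counts in InsE (-1.56 ± 0.37, adjusted p = 0.000541), and its call was lost without InsE replicate 1 (0.0958). SREBF1, whose product drives this pathway, stood at 126 and 134 CPM in InsE against 77.9 to 101 in the other lines (0.55 ± 0.02, adjusted p = 2.53e-20).

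Targets of ATF4, the transcription factor of the amino acid response, were higher as well but stood apart from the control. Of 27 tested, 16 were higher and 2 lower (median 0.18), and 9 and 1 without the block. ASNS, which makes asparagine, had 224 and 222 CPM in InsE, against 147 to 161 in the other lines and 147 and 145 in the control (0.53 ± 0.02, edgeR adjusted p = 1.57e-22). CBS, of the route from homocysteine to cysteine, had 90.2 and 96.6 CPM in InsE, against 50.6 to 58.3 in the other lines and 54.4 and 54.9 in the control (0.75 ± 0.03, adjusted p = 3.77e-20). CEBPB and CHAC1 differed by 0.68 ± 0.05 and 0.97 ± 0.19. In these genes InsE was above every other library, control included. The control lay nearer to InsE in 2 of the 16 higher genes.

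Genes of the respiratory chain and of ribosomes were higher by small amounts. All 13 mitochondrially encoded genes of the respiratory chain were higher (median 0.39, range 0.21 to 0.6), and 12 without the block. Of 75 tested genes of cytosolic ribosomal proteins, 71 were higher and 2 lower (median 0.19), and 35 and 0 without the block. RPL37 had the largest difference, 0.43 ± 0.01, at 471 and 414 CPM in InsE, against 281 to 362 in the other lines. Genes of both groups have near-identical copies elsewhere in the genome, so their counts are uncertain to the extent that reads were split between copies.

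Genes of the extracellular matrix were among the largest falls in InsE. Of 19 tested matricellular genes, whose secreted proteins tune how cells hold to matrix, 11 were lower and 2 higher (median -0.85), 9 and 2 without the block, and 8 of the 11 were at least 2-fold lower. WISP1, of the CCN family, stood at 3.48 and 2.98 CPM in InsE, against 56.5 and 56.2 in InsF, 39.7 and 38.6 in InsG, 42.5 and 41.7 in InsH, and 8.46 and 8.23 in the control. TNC, the tenascin C gene, stood at 0.871 and 0.853 CPM in InsE, against 13.4 and 14.4 in InsF, 8.1 and 9.2 in InsG, 9.39 and 10.2 in InsH, and 7.31 and 7.2 in the control. ECM1 stood at 4.8 and 4.37 CPM in InsE, against 48.5 and 59.1 in InsF, 44.2 and 48.1 in InsG, 48.5 and 53.9 in InsH, and 34.2 and 36.8 in the control. Their differences were -3.76 ± 0.08, -3.56 ± 0.16 and -3.37 ± 0.07, with edgeR adjusted p of 4.25e-31, 1.9e-20 and 5.34e-30. In all 3 genes InsE lay below the control too. SMOC2 differed by -2.56 ± 0.11, and FBLN1 and SPON2, named after their values were seen, were the 2 members that were higher, by 0.47 and 0.43. Both calls were lost with limma on log2(TPM + 1) (adjusted p = 0.0636 for FBLN1 and 0.0803 for SPON2).

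DCN, the gene of the collagen-binding proteoglycan decorin, showed the other pattern. It stood at 2.87 and 2.35 CPM in InsE, against 44.2 and 45.9 in InsF, 37.2 and 36.4 in InsG, 41.3 and 40.4 in InsH, and 1.05 and 0.984 in the control (-3.89 ± 0.08, edgeR adjusted p = 2.59e-30). InsE and the control were thus low together. Its relative LUM, for lumican, was at 702 and 619 CPM in InsE and overlapped with the other lines at 638 to 778 (-0.12 ± 0.01, adjusted p = 7.65e-11, lost without the block at 0.319). IGFBP3, which binds insulin-like growth factors, stood at 1.39 and 0.853 CPM in InsE, against 21.7 and 21.8 in InsF, 7.67 and 7.57 in InsG, 10.2 and 9.1 in InsH, and 2.57 and 3.11 in the control (-3.22 ± 0.14, adjusted p = 2.18e-20).

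Collagen chains were lower in 17 and higher in 2 of 29 tested genes (median -0.46), and in 15 and 0 without the block. COL5A2 stood at 12.1 and 12.8 CPM in InsE, against 41.9 and 42.6 in InsF, 38 and 36.7 in InsG, 37.3 and 40.7 in InsH, and 8.73 and 9.12 in the control (-1.68 ± 0.06, edgeR adjusted p = 9.83e-24). COL3A1, the most abundant of the named collagens, stood at 2710 and 2870 CPM in InsE, against 4420 to 5220 in the other lines and 3650 and 3670 in the control (-0.77 ± 0.01, adjusted p = 2.15e-06). COL4A1, a basement membrane collagen named after its values were seen, differed by -1.17 ± 0.02. COL1A1, also named so, had 20.2 and 32.6 CPM in InsE against 20.1 to 34.8 in the other lines (-0.09 ± 0.06, adjusted p = 0.193).

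Receptors and anchors for that matrix were lower as well. Of 24 tested integrin and laminin genes, 19 were lower and 1 higher (median -0.33), and 13 and 1 without the block, but 9 and 0 with limma on log2(TPM + 1). The basement membrane chain LAMC1, named after its values were seen, stood at 103 and 100 CPM in InsE, against 217 to 239 in the other lines and 156 and 154 in the control (-1.16 ± 0.02). ITGB3, an integrin beta chain, had no count in either InsE library, so no fold is given. In desmosomes and related junctions, 9 of 11 tested genes were lower and none higher (median -0.37, 7 without the block). CDH11, a mesenchymal cadherin, stood at 280 and 279 CPM in InsE, against 463 to 501 in the other lines and 365 and 366 in the control (-0.77 ± 0.02, edgeR adjusted p = 1.49e-30). DSP, which links desmosomes to the cytoskeleton, differed by -1.94 ± 0.26. Metalloproteinases and their inhibitors were lower in 7 and higher in 1 of 18 tested genes, beside 25.4% lower and 25.3% higher over all genes. MMP1, a collagenase, stood at 3.16 and 4.16 CPM in InsE, against 9.86 to 13.3 in the other lines and 36.5 and 39.3 in the control (-1.74 ± 0.12), and its inhibitor TIMP1 differed by -1.38 ± 0.06.

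Caveolae are flask-shaped pits of the plasma membrane, and the genes of their coat proteins, the caveolins, were lower in InsE. CAV1 stood at 2.13 and 1.81 CPM in InsE, against 20.6 and 16.4 in InsF, 12.7 and 13.1 in InsG, 13.5 and 10.2 in InsH, and 1.59 and 1.04 in the control (-2.83 ± 0.13, edgeR adjusted p = 3.82e-20). CAV2, its neighbour on chromosome 7, differed by -2.01 ± 0.23. Of 7 tested caveola genes 6 were lower (median -0.46), and 4 without the block. For 5 of the 6 the control lay nearer to InsE.

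Contractile genes of smooth muscle were lower in 10 and higher in 2 of 15 tested (median -0.15), and in 7 and 0 without the block. TAGLN, an actin cross-linker, stood at 2.1 and 4.05 CPM in InsE, against 22.4 and 24.8 in InsF, 12.6 and 11.1 in InsG, 14.6 and 16.7 in InsH, and 5.01 and 4.56 in the control (-2.66 ± 0.14, edgeR adjusted p = 2.74e-12). ACTG2 stood at 4.22 and 2.88 CPM in InsE, against 20.2 and 19.7 in InsF, 11.6 and 10.5 in InsG, 13 and 15 in InsH, and 5.01 and 4.87 in the control (-1.9 ± 0.11, adjusted p = 1.01e-16). In both genes InsF was highest and InsE and the control were lowest. ACTA2, the main smooth muscle actin, differed by -0.76 ± 0.02, and MYOCD, which switches these genes on, by -1.85 ± 0.44 from 8 and 2 counts in InsE. The MYOCD call was lost without InsE replicate 1 (adjusted p = 0.0721).

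ABCC9 and KCNJ8 encode the 2 subunits of a potassium channel that closes when ATP is plentiful, and both were low in InsE. ABCC9 had 12 and 0 counts in InsE, and stood at 0.387 and 0 CPM, against 7.24 and 6.31 in InsF, 6.73 and 6.4 in InsG, 6.3 and 4.09 in InsH, and 1.25 and 1.5 in the control. KCNJ8 stood at 1.45 and 1.07 CPM in InsE, against 13.1 and 11.5 in InsF, 10.1 and 8.12 in InsG, 10.5 and 10.7 in InsH, and 2.67 and 2.18 in the control. Both InsE libraries lay below all others in each gene. KCNJ8 differed by -3 ± 0.15 (edgeR adjusted p = 2.41e-19). ABCC9 was called lower (adjusted p = 8.05e-15), but the size of its difference is poorly fixed because InsE replicate 2 has no count. It was fitted as -4.42 ± 0.27, as -9.81 without InsE replicate 1, and as -1.46 with limma on log2(TPM + 1). The genes are neighbours on chromosome 12. Among 17 tested potassium channel genes in all, 7 were lower and 3 higher (median 0.04), and 4 and 0 without the block. The shares over all genes were 25.4% lower and 25.3% higher.

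Interferon-stimulated genes were lower in InsE, although no interferon is listed for any group. Interferons act through transcription factors that bind a response element of the form GAAA, any 2 bases, GAAA in their target promoters. Of 45 listed genes 36 were tested, of which 29 were lower and 1 higher (median -0.76), 24 and 0 without the block. At least 2-fold lower were 13. GBP2, a guanylate-binding protein of the cell-autonomous defence, stood at 0.451 and 0.426 CPM in InsE, against 3.76 and 3.93 in InsF, 2.9 and 2.52 in InsG, 2.26 and 2.26 in InsH, and 3.18 and 3.37 in the control (-2.69 ± 0.28, edgeR adjusted p = 3.49e-10). InsE was the low group, and the control lay among the other lines. Over the 29 lower genes the control lay nearer to InsE in 7, against 1603 of 3853 over all genes called lower.

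Not every classical member moved. ISG15 had 12 and 14.6 CPM in InsE, against 12 to 13.9 in the other lines (-0.07 ± 0.08, adjusted p = 0.466), and MX1 had 1.45 and 1.6, against 1.17 to 2.04 (-0.11 ± 0.25, adjusted p = 0.752). Both were named after their values were seen. Many members were low throughout. OAS2 had 4 and 1 counts in InsE, and differed by -2.68 ± 0.53 (edgeR adjusted p = 6.24e-05).

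The genes that load peptides on HLA class I were lower too, with 14 lower and 1 higher of 18 tested (median -0.45), and 9 and 0 without the block. TAP1, which pumps peptides into the endoplasmic reticulum, stood at 1.32 and 0.959 CPM in InsE, against 7.13 and 6.85 in InsF, 6.21 and 6.04 in InsG, 6.48 and 6.51 in InsH, and 4.4 and 4.2 in the control (-2.41 ± 0.17, edgeR adjusted p = 1.32e-14). HLA-C stood at 3 and 3.73 CPM in InsE, against 13.1 to 16.6 in the other lines and 14.5 and 12.7 in the control (-2.18 ± 0.11, adjusted p = 2.48e-19). InsE was below every other library in both, control included. PSMB9, an immunoproteasome subunit that shares its promoter region with TAP1, differed by -2.49 ± 0.36, and HLA-B by -1.87 ± 0.17. HLA genes resemble each other closely, so reads may have been split between them. The shared chain B2M, named after its values were seen, had 234 and 206 CPM in InsE and overlapped with the other lines at 215 to 259 (-0.12 ± 0.02, adjusted p = 4.77e-06, lost without the block at 0.348).

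Promoter windows of TAP1 and of the RNA sensor IFIH1, another lower member named after its values were seen (-2.11 ± 0.39, edgeR adjusted p = 1.94e-05), are shown with the response element in capitals. On the other strand the element reads TTTC, any 2 bases, TTTC. They lie at chr6:32853705-32853954 (minus strand, the first of 2 windows of TAP1) and chr2:162318685-162318934 (minus strand).
TAP1: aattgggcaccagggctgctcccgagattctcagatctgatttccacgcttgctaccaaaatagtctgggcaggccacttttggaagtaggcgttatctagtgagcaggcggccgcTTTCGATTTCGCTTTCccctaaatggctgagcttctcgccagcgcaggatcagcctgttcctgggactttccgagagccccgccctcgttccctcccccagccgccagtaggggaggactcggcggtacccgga
IFIH1: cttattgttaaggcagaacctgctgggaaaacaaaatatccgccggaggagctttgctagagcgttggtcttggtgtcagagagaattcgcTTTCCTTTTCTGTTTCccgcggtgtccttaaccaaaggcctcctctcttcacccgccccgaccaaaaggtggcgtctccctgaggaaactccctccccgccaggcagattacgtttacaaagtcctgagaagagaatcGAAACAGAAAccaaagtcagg
The element occurred in 18 of the 28 tested interferon-stimulated genes with a window, in 15 of the 23 lower ones, and in 7 of the 14 genes of the HLA list. Over all 27305 genes it occurred in 1014 (3.71%).

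Among transcription factors, PBX3 stood out. This homeobox cofactor of the PBX family stood at 0.355 and 0.107 CPM in InsE, from 11 and 1 counts, against 4.73 and 4.88 in InsF, 5.79 and 5.41 in InsG, 5.04 and 4.59 in InsH, and 0.372 and 0.155 in the control (-4.09 ± 0.26, edgeR adjusted p = 8.15e-16). InsE and the control were both close to the floor of 3 counts, which is 0.0968 and 0.3192 CPM in the InsE libraries. The other 11 tested genes of the family differed far less, from -0.14 to 1.22. MEOX2, a mesoderm homeobox gene, was higher at 15.6 and 18.9 CPM in InsE, against 4.42 to 7.52 in the other lines and 6.32 and 6.73 in the control (1.62 ± 0.1, adjusted p = 1.37e-15). HOX genes moved less, with 9 higher and 4 lower of 27 tested (median 0.09, or -0.01 with limma on log2(TPM + 1)). Over all genes tested, 25.3% were higher and 25.4% lower. HOXD13 differed by 0.64 ± 0.07.

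Genes of RNA-binding proteins known from fetal tissue differed in both directions. IGF2BP3 stood at 1.64 and 1.6 CPM in InsE, against 13.5 and 12.8 in InsF, 15.3 and 13.3 in InsG, 14.5 and 16 in InsH, and 4.67 and 4.4 in the control (-3.13 ± 0.13, edgeR adjusted p = 2.25e-21). YBX3 stood at 4.13 and 5.65 CPM in InsE, against 26.1 to 32.2 in the other lines and 1.86 and 2.12 in the control (-2.69 ± 0.08, adjusted p = 3.64e-25). The abundant relative IGF2BP2 was higher instead, at 508 and 514 CPM in InsE, against 396 to 428 in the other lines and 507 and 499 in the control (0.31 ± 0.01). In all 3 genes the control lay nearer to InsE than to the mean of the other lines on the log2 scale.

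Lists of secreted guidance and growth signals differed in their balance. Of 34 tested axon guidance genes 19 were lower and 7 higher (median -0.25), and 15 and 2 without the block. SLIT3, a ligand of the ROBO receptors, stood at 1.55 and 2.45 CPM in InsE, against 11.7 to 16.3 in the other lines and 11.1 and 11 in the control (-2.85 ± 0.15, edgeR adjusted p = 3.49e-15). In the WNT list 9 were lower and 6 higher of 31 tested (median 0.03), near the 25.4% and 25.3% over all genes. DKK2, a modulator of the WNT co-receptors, stood at 11.9 and 12 CPM in InsE, against 34.4 to 48.1 in the other lines and 23.4 and 25.2 in the control (-1.79 ± 0.06, adjusted p = 1.61e-24). In the TGF-beta and BMP list 13 were lower and 7 higher of 32 (median -0.21), and 7 and 3 without the block, with the receptor gene BMPR1B at -2.15 ± 0.21 and the ligand gene BMP2 at 0.69 ± 0.07. Retinoid genes diverged. CRABP2, which carries retinoic acid in the cell, differed by 1.34 ± 0.08, and DHRS3, which reduces retinal back to retinol, by -1.63 ± 0.09. SOCS2, an inhibitor of cytokine signalling, stood at 5.71 and 4.16 CPM in InsE, against 14 to 17.4 in the other lines and 12 and 12.1 in the control (-1.6 ± 0.09, adjusted p = 5.41e-17).

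**Figure D5:**
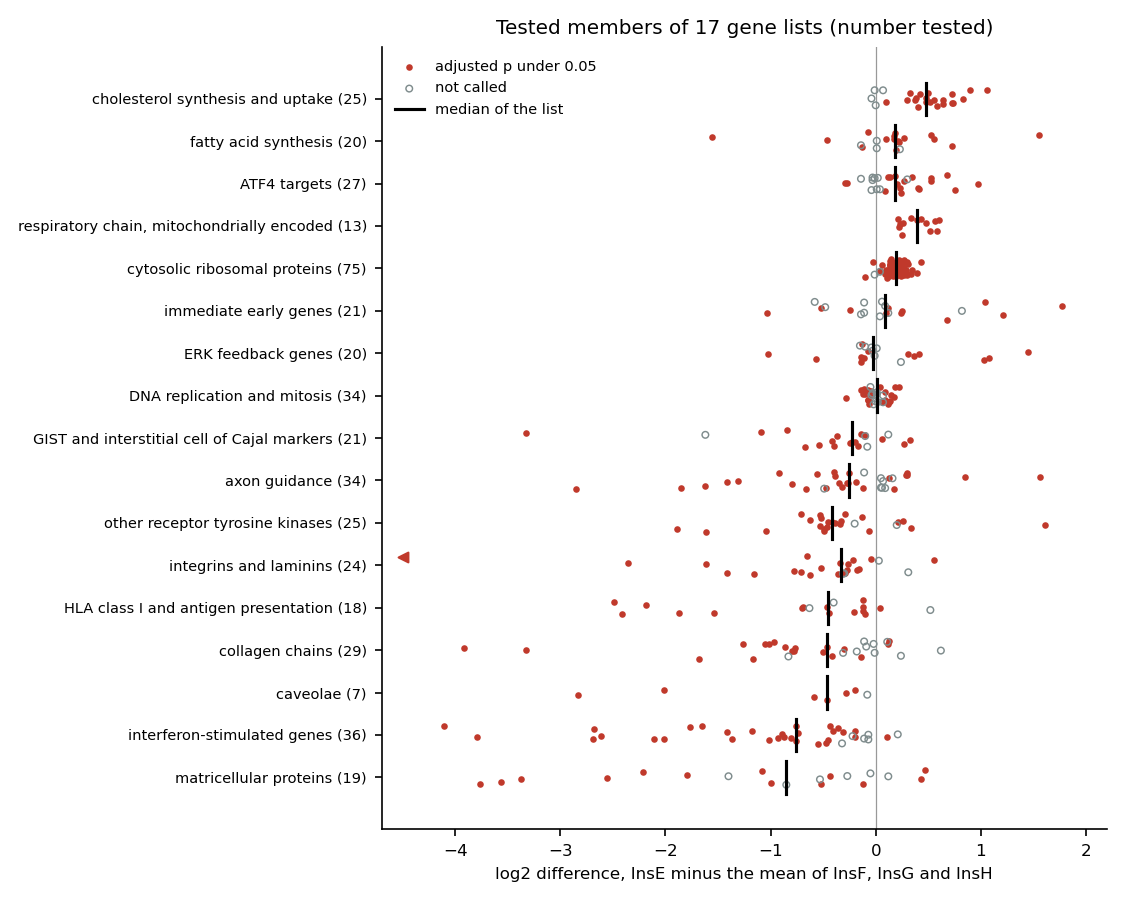
Difference of InsE from the mean of InsF, InsG and InsH (log2) for every tested member of 17 gene lists, with the number tested in brackets. Filled points were called, open points were not, black bars are list medians, and the arrowhead is ITGB3, drawn at the edge because it has no count in InsE. Medians run from 0.48 for cholesterol synthesis and uptake to -0.85 for matricellular proteins.

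Markers of GIST and of its cell of origin, the interstitial cell of Cajal, were present in every line and somewhat lower in InsE. Of 21 tested, 14 were lower and 3 higher (median -0.23), and 10 and 1 without the block. The 3 higher members, named after their values were seen, were FOXF1 (0.33 ± 0.01), HAND2 (0.27 ± 0.04) and CD34 (0.06 ± 0.01). KIT, named after its values were seen, had 1260 and 1190 CPM in InsE, against 1310 to 1520 in the other lines and 2380 and 2350 in the control. Its difference was small, at -0.2. Its ligand gene KITLG stood at 25.1 and 19.8 CPM in InsE, against 40.7 to 56.9 in the other lines and 39.4 and 41.1 in the control (-1.09 ± 0.05, edgeR adjusted p = 2.65e-21). The receptor gene GPR20 stood at 67.3 and 70.4 CPM in InsE, against 102 to 114 in the other lines and 91.2 and 94.5 in the control (-0.67 ± 0.03, adjusted p = 6.71e-21). Summed over the list, the level was 5890 and 5830 TPM in InsE, against 6650 to 6930 in the other lines and 7670 and 7690 in the control.

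Genes of DNA replication and mitosis went both ways by small amounts. Of 34 tested 12 were higher and 12 lower (median 0.01), and 3 and 1 without the block. With limma 4 were higher and 11 lower on both TPM scales (median -0.04). MKI67, the proliferation marker, stood at 853 and 911 CPM in InsE, against 723 to 796 in the other lines and 1170 and 1160 in the control (0.22 ± 0.01, edgeR adjusted p = 1.7e-25). RRM2, which makes the building blocks of DNA, differed by -0.28 ± 0.01. Of 23 tested p53 targets, 9 were higher and 4 lower (median 0.02), 0 and 1 without the block, and 0 and 2 with limma on log2(TPM + 1). Beside the replication and p53 counts, the shares over all genes were 25.3% higher and 25.4% lower. Of the 12 tested genes of CTCF and cohesin, none was higher and 7 were lower (median -0.13), and 3 without the block. CTCF itself, named after its values were seen, had 115 and 113 CPM in InsE against 109 to 113 in the other lines (0.05 ± 0.02, adjusted p = 0.109). CTCFL, its germline relative, stood at 5.03 and 4.37 CPM in InsE, against 7.93 to 9.27 in the other lines and 3.89 and 3.11 in the control (-0.81 ± 0.11, adjusted p = 8.2e-08).

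Several of the largest rises belonged to no list. UBE2E2, an enzyme that conjugates ubiquitin, stood at 18.7 and 18.1 CPM in InsE, against 4.93 to 6.4 in the other lines and 11.8 and 11.9 in the control (1.61 ± 0.08, edgeR adjusted p = 9.81e-19). OLMALINC, a long noncoding RNA, stood at 24.8 and 24.3 CPM in InsE, against 8.34 to 11 in the other lines and 18.6 and 17.1 in the control (1.38 ± 0.07, adjusted p = 4.87e-19). It lies next to SCD on chromosome 10. The rises of NAIP, NPIPB11 and NPIPB4 (1.55, 1.77 and 1.37) are uncertain because these genes have near-identical copies, and the NPIPB4 call was lost without InsE replicate 1 (0.242).

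Called genes lay on every autosome and on chromosome X. Over 621 runs of 20 neighbouring protein-coding genes the median difference ran from -0.31 to 0.25. Adjacent runs on chromosome 5, from 92151 to 1801366 and from 1801400 to 15939795, were among the highest. They had 13 higher and 2 lower, and 15 higher and 2 lower, of 20 genes each (medians 0.2 and 0.21). At the low end, a run on chromosome 1 from 76074719 to 85201046 had 2 higher and 15 lower. Over all genes tested, 25.3% were higher and 25.4% lower. Whether neighbouring genes moved together was not tested. Distal chromosome 13 had 29 higher and 38 lower of 90 genes (median -0.03), distal chromosome 4 had 9 and 11 of 41 (-0.02), and a block of chromosome 19 had 28 and 9 of 95 (0.05).

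Markers of fibroblasts and smooth muscle were lower in InsE, but they are largely genes already described. All 4 tested smooth muscle markers (TAGLN, MYOCD, ACTA2 and SMTN) belong to the contractile list. Of the fibroblast markers, COL1A1, COL3A1, DCN, LUM and POSTN belong to the matrix lists. Their levels are thus no separate measure of other cells, whose part in those results was not tested. Fibroblast markers summed to 2180 and 2090 TPM in InsE, against 2900 to 3060 in the other lines and 2250 and 2270 in the control, with 6 of 7 tested genes lower. The list had both absent and expressed members. FAP and PDPN were at 0 in all 10 libraries, and COL1A2 in both libraries of InsE, InsG and the control. THY1, named after its values were seen, and PDGFRB belong to no matrix list. They were expressed and lower in InsE, by -0.17 ± 0.01 and -0.39 ± 0.06. Smooth muscle markers summed to 390 and 411 TPM in InsE, against 544 to 747 in the other lines and 402 and 409 in the control, with 3 of 4 tested lower and DES, for desmin, at 0 in every library. Neuron and glia markers summed to 28.5 and 31.3 TPM in InsE against 38.8 to 46.6 in the other lines, of which TUBB3 was the only tested gene. Endothelial markers summed to at most 1.84 TPM in any line and leukocyte markers to at most 5.24. Epithelial markers summed to 194 and 211 TPM in InsE against 208 to 255, with KRT19 at 0. Fewer cells of a type and less RNA per cell cannot be told apart in these bulk samples.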

How the data were processed

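Poly(A)-selected RNA was sequenced from 10 libraries, per the labels' protocols. Reads were aligned with STAR 2.5.3 and quantified with RSEM 1.3.2 on hg38, and DESeq2 1.38.3 is also named, per the submitters' processing notes. No source used here gives the strand or the annotation release. The expected count values were deposited by the authors as RSEM estimates per gene. The TPM values deposited by the authors are RSEM's length-corrected shares. A table of the whole series, with 10 value columns that match no sample's labels, was not used.

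Expected counts were rounded to whole numbers. Of 58381 gene rows, 58261 matched GENCODE release 29. Genes were kept by filterByExpr with a minimum count of 10, leaving 15173. The main test was edgeR 4.0.16 (R 4.3.3) with TMM factors and a robust quasi-likelihood fit of line plus replicate number, 3 residual degrees of freedom, two-sided. P-values were adjusted by Benjamini-Hochberg across the 15173 genes, and those under 0.05 were called. Every adjusted p without another name comes from this fit. TPM + 1 and TPM + 0.1 were tested with limma 3.58.1, and DESeq2 1.42.0 was run on the counts. Replicate numbers were taken to pair the libraries: in all 6 pairs of lines the deviations of same-numbered libraries correlated (0.412 to 0.483). Replicate 1 was the deeper library in every line. These correlations therefore cannot tell a shared effect of depth from libraries that were prepared together. The spread measured is that between libraries, and counting error is larger in the shallower replicate 2. On simulated data for this contrast (14844 genes, 200 of them changed), 85.1%, 94% and 98.5% of genes changed by 1.5-fold, 2-fold and 4-fold were called, with 27 false calls. The simulated counts had no replicate effect and no differences among InsF, InsG and InsH. In the data 40.8% of genes were called between replicates and 28.4% among those lines. The simulation therefore gives no rate of false calls for the 7695 genes called in the data.

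Genes were named by rule: the 15 largest rises and falls among well-expressed called genes with no overlap between InsE and the others, up to 4 called members of each of 48 gene lists, and the genes around FGF3. For those largest rises and falls, the separation of InsE from InsF, InsG and InsH was set by selection and is no separate result. Genes outside the rule are marked in the text, and some results are not reported here. The comparison, its lists and the naming rule were chosen with earlier results of these data known. Whether the control lay nearer to InsE was read from mean log2(CPM + 0.25), with no test. Promoter windows were taken from RefSeq.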

Additional observations from a re-analysis of the deposited data

How the results depend on the processing

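Leaving out the replicate block gave 3033 called genes for InsE against the mean of the other 3 lines, DESeq2 5019, limma on log2(TPM + 1) 4701 and on log2(TPM + 0.1) 4760. For InsE against InsF, InsG and InsH singly these settings gave 2181, 1961 and 1687 without the block, 4251, 4286 and 3707 with DESeq2, 3615, 3504 and 3259 on log2(TPM + 1), and 3641, 3521 and 3291 on log2(TPM + 0.1). The counts among InsF, InsG and InsH were 8 (InsF against InsG), 7 (InsF against InsH), 0 (InsG against InsH) and 6 (any difference) without the block. The cause was not tested. These last comparisons and their alternatives were chosen after seeing the data. Leaving out 1 library gave 4231 to 7667 calls for the main comparison, lowest without InsE replicate 1, and 4341 to 6953, 4285 to 7067 and 3757 to 6224 against InsF, InsG and InsH. It gave 1784 to 4481 for InsF against InsG, 181 to 782 for InsF against InsH, 548 to 2539 for InsG against InsH and 1855 to 4409 for any difference among them. Other size factors, no filter, a filter at 1 CPM, all 10 libraries and leaving out a whole line left the main count within 1.5 times, but the filter at 1 CPM gave 375 genes with at least a 2-fold difference and limma on log2(TPM + 1) gave 231, against 740. The pseudocount of 1 shrinks differences of low genes, as for PBX3 (-1.81) and GFRA1 (-2.08). In the same direction under every setting, 1886 genes were called. The median over all genes was -0.08 and -0.09 on the TPM scales. Uncalled genes changed sign: COL1A1 reached 0.02 without InsF, and with 1 library left out COL1A1 ran from -0.16 to 0.06, ISG15 from -0.16 to 0.15 and MX1 from -0.2 to 0.00. Depth limits genes with few reads, such as FGF19, EGR3 and OAS2.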
